A study of Homo sapiens with 18 samples.

Results

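The mitochondrial ribosome is built from RNAs encoded in mitochondrial DNA and from proteins encoded in the nucleus, which are made in the cytosol and imported. It translates the few respiratory chain subunits that mitochondrial DNA still encodes, so its protein genes (MRPL for the large subunit, MRPS for the small) are expressed in nearly every cell that respires. Their promoters are known as a class bound by nuclear respiratory factor 1 (NRF1), by the ETS factor GABP (nuclear respiratory factor 2) and by YY1. The genes were taken by symbol: every transcript cluster of the array whose gene symbols all consisted of MRPL or MRPS, a number and at most 1 letter from A to D. This gave 77 of the 21214 clusters with a symbol, from 73 genes. The other 4 such genes of the RefSeq gene table (MRPL51, MRPS6, MRPS24 and MRPS28) share a cluster with another gene and were kept apart. All 77 clusters were tested, with no filter on level.

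Levels were measured in HEK293, a human embryonic kidney cell line, 24 h or 48 h after transient transfection with an expression vector for RHOXF1, with one for RHOXF2, or with an empty control vector. Each of these 6 groups holds 3 arrays. Both transfected genes are X-linked members of the reproductive homeobox family and make homeodomain proteins. All groups share the cell line, the Lipofectamine reagent and the plasmid supplier, whose vector named in the labels carries GFP. The share of cells that took up plasmid is not given in the sources used here, so each value is an average over transfected and untransfected cells. The labels call the arrays of a group biological triplicates. A level is a log2 RMA expression value, in which 1 unit is a doubling of array signal. A difference is that of 2 group means on the same scale. A gene is said to have risen or fallen only where limma's test passed at a Benjamini-Hochberg adjusted p of 0.05 over all 21214 clusters.

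The transfected genes read high in the arrays labelled for them. RHOXF1 lay at 12.13 to 12.32 in the RHOXF1 arrays and at 5.67 to 6.56 in control arrays, and the RHOXF2 cluster, shared with its copy RHOXF2B, at 12.78 to 12.96 in the RHOXF2 arrays and at 6.44 to 7.12 in control arrays. In the RHOXF2 arrays RHOXF1 itself read 6.94 to 9.12. Of 8 HEK293 markers, 6 lay above the array median on every array (not PAX2 and INA), with a mean over the list of 9.84 to 10.08 at 24 h and of 10.07 to 10.31 at 48 h; of 8 markers of blood, liver, endothelium, glia, muscle and fibroblasts only COL1A1 did, with a list mean of 5.29 to 5.54 at 24 h and of 5.30 to 5.45 at 48 h. Between the times, limma called 4 of the 8 HEK293 markers higher in control cells, where 9.89% of all clusters were. Their median difference was 0.279. In RHOXF1 and in RHOXF2 cells 1 marker was called higher (medians 0.149 and 0.134), where 650 and 209 of the 21214 clusters were. The part of these shifts in the results below was not tested. The 24 h arrays carry numbers 1 to 9 and the 48 h arrays 16 to 24, so time and array series cannot be told apart. On the first principal component, which held 34.1% of the variance, replicate 3 of RHOXF2 at 48 h lay at -4.5, between the 24 h arrays (-17.2 to -8.7) and the other 48 h arrays (9.4 to 26.3).

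As a group the mitochondrial ribosomal protein genes gave a clear array signal: 72 of the 77 clusters lay above the array median on average, and MRPL54, MRPS9, MRPS18C, MRPS33 and MRPL13 did not. The steadiest over the 18 arrays was MRPL37, a large subunit protein, which stayed between 11.96 and 12.13 (SD 0.049). MRPS5, a small subunit protein, stayed between 9.41 and 9.59 (SD 0.051), and MRPS30, which in spite of its name sits in the large subunit, between 9.91 and 10.12 (SD 0.069). The most variable was MRPL1, which forms part of the mobile stalk beside the site where transfer RNA leaves, at 6.82 to 8.38 (SD 0.50). MRPS23 ranged from 7.77 to 9.15 (SD 0.33), and the dim MRPS18C from 4.88 to 5.90 (SD 0.32).

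The time after transfection separated the arrays more than the plasmid did. Averaged over the 73 genes, control arrays of 24 h deviated from the genes' own means by -0.027, 0.055 and 0.157 (replicates 1 to 3), and control arrays of 48 h by -0.088, -0.159 and -0.129. The RHOXF1 arrays gave 0.052, 0.09 and 0.012 at 24 h and -0.049, -0.02 and -0.068 at 48 h. The RHOXF2 arrays gave 0.053, 0.064 and 0.134 at 24 h and -0.091, -0.069 and 0.083 at 48 h. The groups of the 2 times did not overlap for control or for RHOXF1. For RHOXF2 they did: replicate 3 at 48 h, the array that stood apart on the first principal component, lay among the 24 h arrays.

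**Figure D1:**
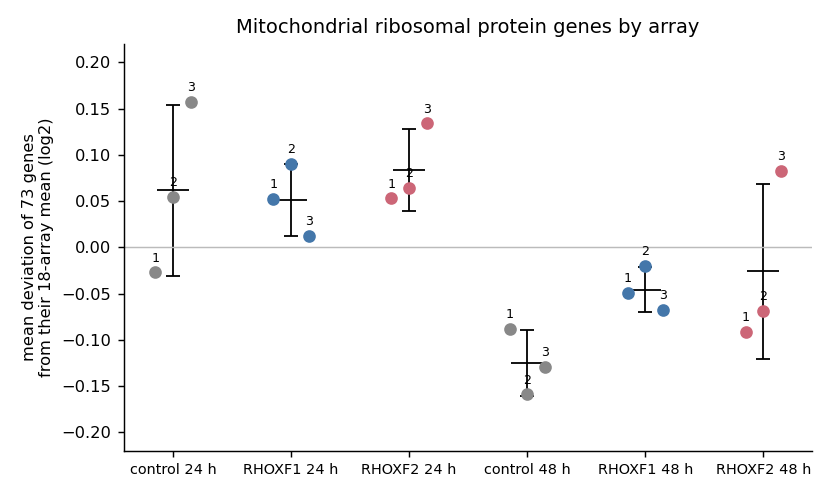
Mean deviation of the 73 mitochondrial ribosomal protein genes from their own mean over the 18 arrays (log2, y axis) in each array, by group (x axis); points are arrays labelled by replicate number, and the line and bars are the group mean ± SD (n = 3). The 24 h arrays lie between -0.027 and 0.157 and the 48 h arrays between -0.159 and 0.083, with RHOXF2 replicate 3 at 48 h above the others of its time.

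In control cells 21 of the 77 clusters, from 20 genes, fell between 24 h and 48 h, and none rose. That is 27.3% of the clusters lower, where 7.89% of all 21214 clusters were called lower in the same comparison (9.89% were called higher). Of the 10607 clusters above the median level, where most members lie, 9.51% were called lower, and their median was 0.021. The median difference over the 77 clusters was -0.183 against -0.029 over all clusters, and 57 of 77 were lower against 55% of all. The 3 arrays of 48 h lay entirely below those of 24 h in 26 clusters, against 15.7% of all clusters. In these bulk samples, fewer cells of a kind and less RNA per cell cannot be told apart.

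That count rested on single control arrays: it was 7 without replicate 3 of control at 24 h, 9 without replicate 2 of that group, 8 without replicate 2 and 12 without replicate 3 of control at 48 h, and 23 and 24 without replicate 1 of 24 h or of 48 h. These counts take calls in either direction. MRPS34, which read higher at 48 h, passed limma's test in 1 of the alternatives (adjusted p = 0.0436). The median moved to -0.111 without replicate 3 of control at 24 h. With only the 6 control arrays in the fit, 8 clusters were called. In 4 genes (MRPL1, MRPL20, MRPL35 and MRPL27) the call held with each control array left out and under every other setting tried.

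MRPL1 fell furthest, with levels of 7.72, 8.26 and 8.37 in control arrays of 24 h and of 7.28, 6.82 and 7.13 at 48 h. No array of 48 h reached the lowest of 24 h, and the fall was 2.05-fold (log2 difference -1.04 ± 0.17 SE, n = 3 against 3, limma adjusted p = 0.00104). MRPL20, which binds ribosomal RNA in the core of the large subunit, read 10.80, 10.73 and 10.70 and then 10.05, 10.24 and 10.05. Its arrays of the 2 times were far apart for their spread, and it fell 1.55-fold (-0.63 ± 0.11, adjusted p = 0.00156); the array holds 2 clusters for it with identical values. MRPL35, another large subunit protein with a bacterial counterpart, read 9.92, 10.20 and 10.06 and then 9.35, 9.40 and 9.76. It fell 1.47-fold (-0.56 ± 0.11, adjusted p = 0.00333), with replicate 3 of 48 h nearest to the 24 h arrays. MRPL27, which in bacteria reaches into the peptidyl transferase centre, read 8.43, 8.72 and 8.70 and then 8.14, 8.17 and 8.06. It fell 1.41-fold (-0.49 ± 0.10, adjusted p = 0.0038), without overlap between the times.

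**Figure D2:**
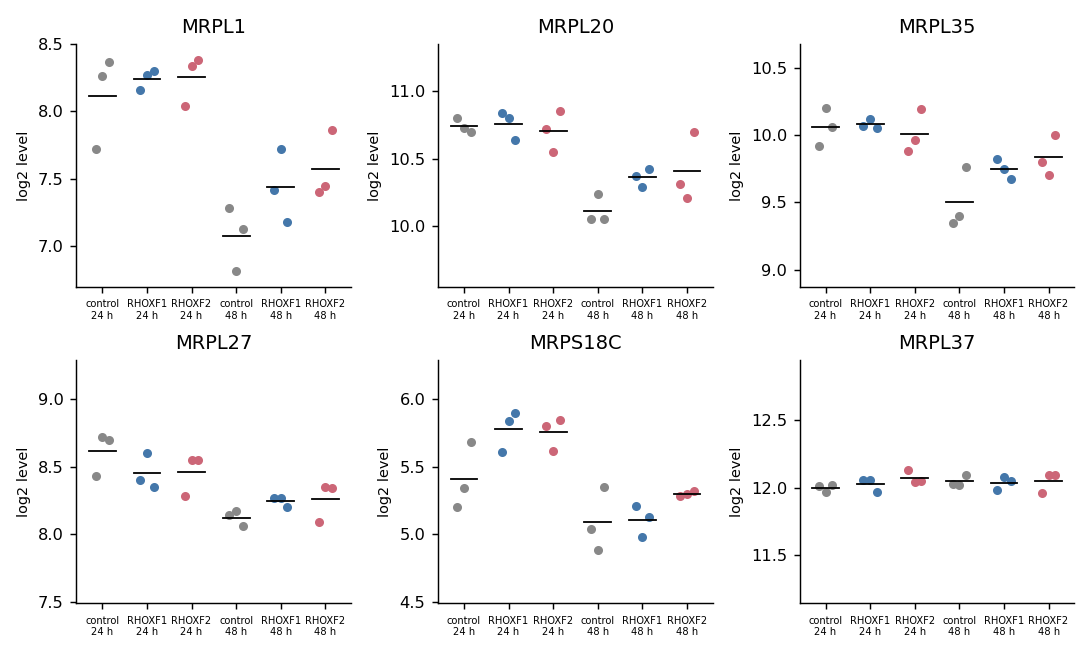
Log2 level (y axis, each panel spanning the same range) of MRPL1, MRPL20, MRPL35, MRPL27, MRPS18C and, as the steadiest gene, MRPL37 in each array by group (x axis); points are arrays and lines group means (n = 3). MRPL1 runs from 6.82 to 8.38, while MRPL37 stays between 11.96 and 12.13.

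A further 11 large subunit genes fell in control cells. MRPL11, at the base of the stalk where translation factors bind, read 9.73, 9.87 and 10.15 at 24 h and 9.71, 9.42 and 9.44 at 48 h (-0.39 ± 0.12, adjusted p = 0.0275), with the lowest array of 24 h and the highest of 48 h nearly level. MRPL12, the flexible protein of that stalk, fell by 0.32 (adjusted p = 0.02), from 10.38, 10.44 and 10.47 to 10.17, 10.11 and 10.07. MRPL3, which lies close to the peptidyl transferase centre, fell by 0.28 (adjusted p = 0.0472). MRPL18, of the central protuberance, fell by 0.32 (adjusted p = 0.012), MRPL28 by 0.28 (adjusted p = 0.0276), MRPL15 by 0.46 (adjusted p = 0.0155) and MRPL32, a protein that the m-AAA protease must process before it is assembled, by 0.26 (adjusted p = 0.0493). MRPL46, MRPL47 and MRPL52, whose numbers lie beyond those of the bacterial proteins, fell by 0.47, 0.41 and 0.37 (adjusted p = 0.0126, 0.0278 and 0.0267). MRPL36, the smallest of the bacterial-type proteins, was called in only 1 of its 2 clusters (-0.23, adjusted p = 0.043), while its brighter cluster read -0.03 (adjusted p = 0.899), and 0.15 without replicate 3 of control at 48 h.

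Of the genes named for the small subunit 5 fell in control cells. MRPS12, the decoding-centre protein whose bacterial counterpart is altered in streptomycin resistance, read 9.04, 9.16 and 9.47 at 24 h and 8.89, 8.73 and 8.56 at 48 h (-0.49 ± 0.14, adjusted p = 0.0202). MRPS23 read 8.51, 8.57 and 9.15 and then 8.43, 8.10 and 7.77 (-0.64 ± 0.17, adjusted p = 0.014), with its extremes in replicate 3 of each time. MRPS11, of the platform, fell by 0.44 (adjusted p = 0.0152), MRPS15 by 0.34 (adjusted p = 0.0317) and MRPS10 by 0.27 (adjusted p = 0.0393). MRPS11 and MRPL46 are next to each other in the genome and are the only such pair among the members. The genes of smallest p in the other direction did not pass: MRPL10, at the base of the stalk, read 0.22 ± 0.13 (adjusted p = 0.244) and MRPS34 0.18 ± 0.11 (adjusted p = 0.271). MRPS18B, a paralog of MRPS18C, read 0.075 ± 0.08 (adjusted p = 0.54) in each of its 3 clusters, which hold identical values.

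**Figure D3:**
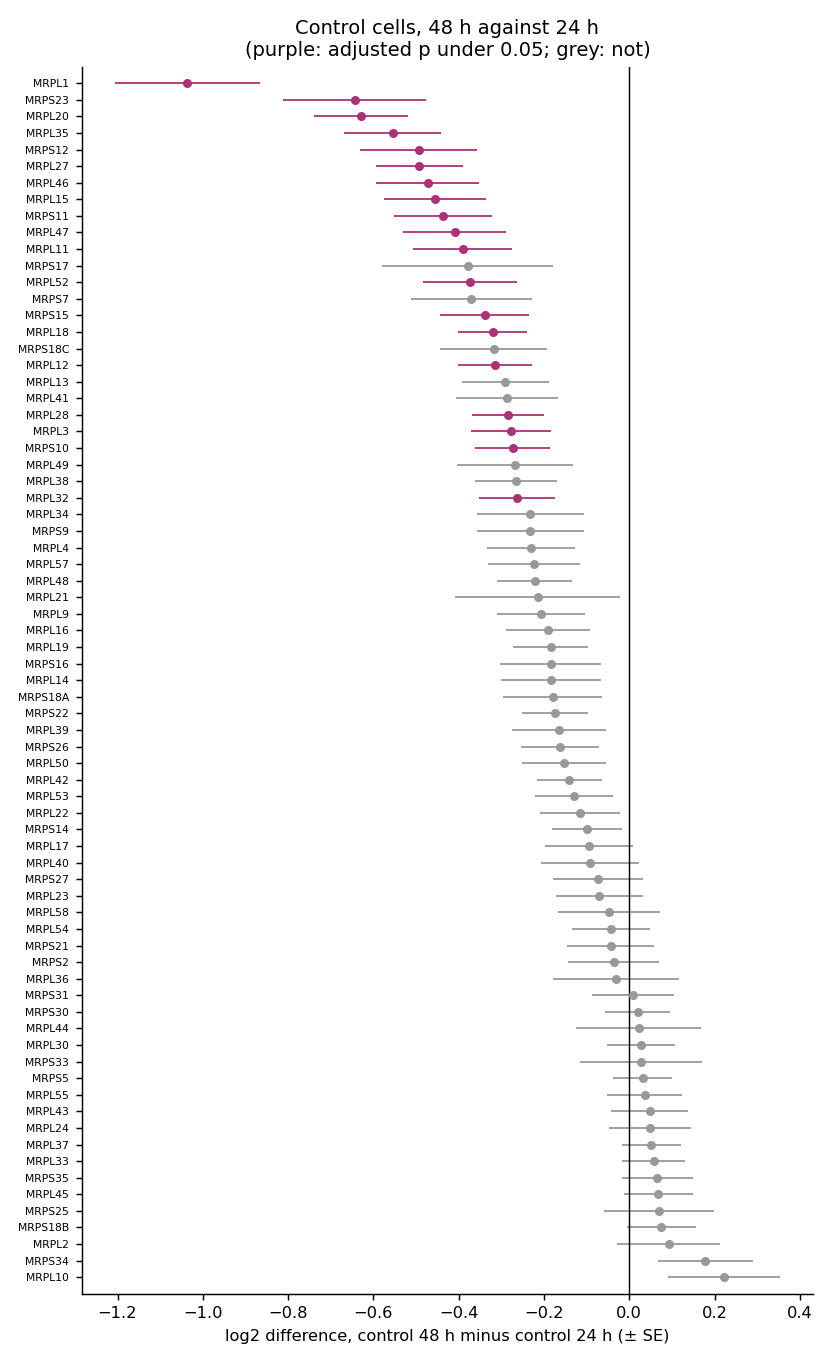
Log2 difference of control cells at 48 h minus 24 h (x axis, ± limma SE, n = 3 against 3) for each of the 73 genes (y axis, by the brightest cluster), purple where the adjusted p is under 0.05. The purple points run from -1.04 for MRPL1 to -0.26 for MRPL32, and the highest reading is 0.22 for MRPL10.

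By 1 cluster per gene, 14 of 48 genes named MRPL and 5 of 25 named MRPS fell, with medians of -0.199 and -0.162. These classes go by name, which does not always give the subunit (MRPS30, counted as MRPS, is an example). Of the genes numbered up to MRPL36 or MRPS21, whose proteins mostly have a bacterial counterpart, 15 of 43 fell (median -0.23), and of those with higher numbers, most of which are particular to mitochondria, 4 of 30 (median -0.111). The number is only a guide, since MRPL47 corresponds to bacterial L29, and the differences between these classes were not tested. Of the 4 shared clusters, the one of MRPS28 and TPD52 fell by 0.34 (adjusted p = 0.025), and that of MRPL51 and SPTLC1 read -0.22 (adjusted p = 0.0504); that of MRPS6 and SLC5A3 read 0.07, and that of MRPS24 0.03, which turned to -0.003 and -0.02 without replicate 1 of control at 24 h or replicate 2 at 48 h. Among 94 clusters of cytosolic ribosomal proteins, 82 were higher at 48 h in control cells, with 4 called higher and 1 lower and a median of 0.109. The 87 clusters of the respiratory chain and ATP synthase had a median of -0.058, with 4 called lower and 1 higher. Over all clusters 9.89% were called higher and 7.89% lower in this comparison, 55% read lower, and the median was -0.029. Of the cytosolic clusters 1.06% were called lower, and of the respiratory clusters 4.6%. In both lists the calls in either direction came at smaller shares than over all clusters. The members' difference from these lists was not tested.

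The promoters of the genes were read for the cores of the 3 factors named above. RefSeq promoter sequences (GRCh38.p14, 300 bases from 250 before the start to 50 after it, the first start listed) matched 66 of the 73 genes by gene identifier. The ETS core CCGGAAG, on either strand, was in 28 of 66 (42.4%) and in 14.2% of 15843 protein-coding promoters. The YY1 core AAGATGG was in 21 (31.8%) and in 6.4% of protein-coding promoters, and the NRF1 core GCATGCG in 7 (10.6%) and in 5.14%. Over all 27305 promoters the shares were 10.7%, 6.06% and 4.13%. The ETS core ends in the letters with which the YY1 core begins, so their matches could overlap, but matches of different cores overlapped in 0 of the 66 promoters. Among the 18 matched genes called in control cells, 9 held the ETS core, 9 the YY1 core and 3 the NRF1 core, and among the other 48 genes 19, 12 and 4 did; the difference was not tested. A match is a description of letters and not of binding.

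The upstream promoter bases of 4 genes that fell in control cells are shown, 5′ to 3′ on the gene's strand up to the base before the start, because they hold these cores in different arrangements; capitals mark the cores or their reverse complements (CTTCCGG for the ETS core and CCATCTT for the YY1 core). MRPL20, at chr1:1407294-1407543 (minus strand), has a pair of ETS cores beginning 44 and 21 bases before the start, and a YY1 core just after the start, beyond the bases shown. MRPS23, at chr17:57850045-57850294 (minus strand), has a single reversed ETS core 14 bases before it. MRPL52, at chr14:22829637-22829886 (plus strand), has an NRF1 core at 175 bases and YY1 cores at 98 and 64. It also has a reversed ETS core that begins 5 bases before the start and runs past it. The first letters of that reversed core close the printed bases in lower case. MRPL47, at chr3:179604639-179604793 (minus strand), shown up to the neighbouring gene NDUFB5, has a reversed YY1 core at 91 bases and an ETS core at 39.
MRPL20: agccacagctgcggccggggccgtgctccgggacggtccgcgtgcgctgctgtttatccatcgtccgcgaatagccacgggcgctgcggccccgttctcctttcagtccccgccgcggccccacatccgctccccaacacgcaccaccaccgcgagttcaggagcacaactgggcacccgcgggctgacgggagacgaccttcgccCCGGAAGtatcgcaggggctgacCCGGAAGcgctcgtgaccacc
MRPS23: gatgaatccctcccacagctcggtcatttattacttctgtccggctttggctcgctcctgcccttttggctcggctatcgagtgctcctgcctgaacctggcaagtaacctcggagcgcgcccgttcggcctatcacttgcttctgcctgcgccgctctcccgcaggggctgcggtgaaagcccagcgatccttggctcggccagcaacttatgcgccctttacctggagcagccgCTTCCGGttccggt
MRPL52: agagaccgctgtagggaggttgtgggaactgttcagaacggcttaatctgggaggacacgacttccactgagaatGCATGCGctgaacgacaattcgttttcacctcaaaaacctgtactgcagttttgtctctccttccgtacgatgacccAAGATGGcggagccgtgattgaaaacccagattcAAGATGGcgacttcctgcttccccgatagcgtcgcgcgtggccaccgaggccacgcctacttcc
MRPL47: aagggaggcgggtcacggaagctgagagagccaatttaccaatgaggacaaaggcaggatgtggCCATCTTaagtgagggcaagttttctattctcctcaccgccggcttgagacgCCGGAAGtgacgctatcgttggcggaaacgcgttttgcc

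In RHOXF1-transfected cells 4 clusters of 3 genes fell between 24 h and 48 h, and none rose, where 1.35% of all clusters were called lower. The median over the 77 clusters was -0.097 against -0.005 over all. Of the 10607 clusters above the median level, 2.33% were called lower, and their median was -0.002. MRPS18C, 1 of 3 paralogs that descend from bacterial S18, read 5.61, 5.84 and 5.90 at 24 h and 5.21, 4.98 and 5.13 at 48 h. The times did not overlap, and it fell 1.60-fold (-0.68 ± 0.13, adjusted p = 0.00901), at a level in the lower part of the array's range. MRPL1 read 8.16, 8.27 and 8.30 and then 7.42, 7.72 and 7.18, a fall of 1.75-fold (-0.81 ± 0.17, adjusted p = 0.0153). MRPL20 read 10.84, 10.80 and 10.64 and then 10.37, 10.29 and 10.42, a fall of 1.32-fold (-0.40 ± 0.11, adjusted p = 0.0482). On the higher side none passed: MRPS34 read 0.21 ± 0.11 (adjusted p = 0.305), MRPL43 0.16 ± 0.09 (adjusted p = 0.325) and MRPL45 0.14 ± 0.08 (adjusted p = 0.344).

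The RHOXF1 calls also depended on single arrays. The count was 2, 1 and 0 without replicates 1, 2 and 3 of RHOXF1 at 24 h, and 1, 2 and 1 without replicates 1, 2 and 3 at 48 h. Leaving out any array of these groups ended the MRPL20 call. With only the 6 RHOXF1 arrays in the fit the count was 6. After repeated quantile normalization or cyclic loess 2 clusters were called, with medians of -0.051 and -0.063.

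In RHOXF2-transfected cells limma called 0 of the 77 clusters between the times, where 0.259% of all clusters were called lower; 11 had an unadjusted p under 0.05, all lower, against 6.36% of all, and the median was -0.12 against 0.014 over all. Of the 10607 clusters above the median level, 0.321% were called lower and 966 were lower at that p, with a median of -0.001. MRPL1 was nearest to a call, at 8.04, 8.34 and 8.38 at 24 h and 7.40, 7.45 and 7.86 at 48 h (-0.69 ± 0.17, adjusted p = 0.0523). MRPS18C read 5.80, 5.62 and 5.85 and then 5.28, 5.30 and 5.32 (-0.46 ± 0.13, adjusted p = 0.0702). Neither gene's times overlapped. MRPL13, a large subunit protein, read -0.32 ± 0.10 (adjusted p = 0.115). Without replicate 3 at 48 h, which stood apart, 4 clusters were called, and without replicate 1 at 24 h 1 was; with replicate number as a block 2 were, and 1 after repeated quantile normalization, above the median level, or with 1 cluster per symbol. On the higher side, MRPL24 (0.20 ± 0.10, adjusted p = 0.317), MRPS34 (0.19 ± 0.11, adjusted p = 0.422) and MRPS18B (0.14 ± 0.08, adjusted p = 0.425) did not pass.

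**Figure D4:**
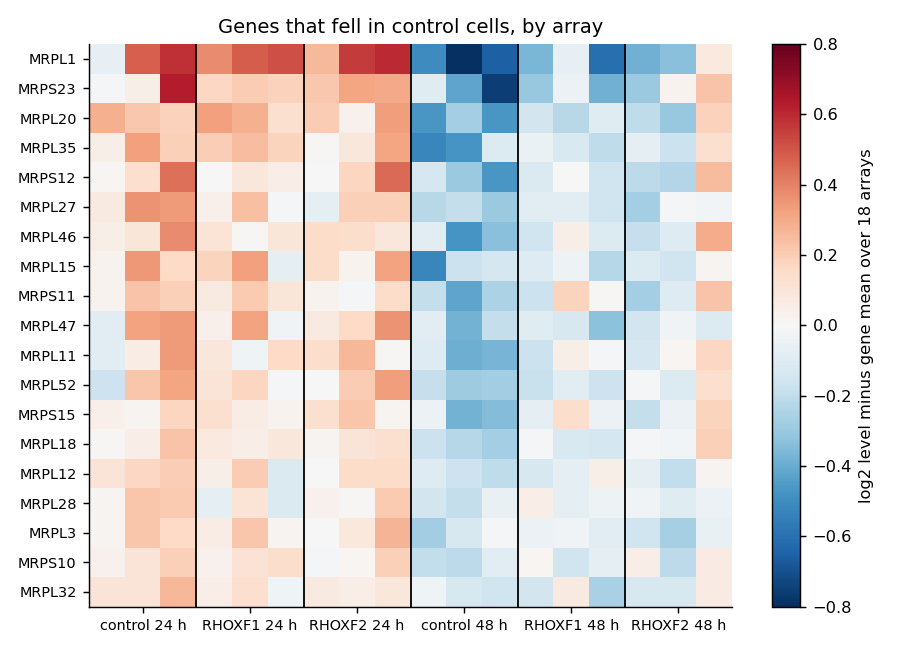
Level minus the gene's mean over the 18 arrays (log2, colour) of the 19 genes whose brightest cluster fell in control cells (rows, by size of the fall) in each array (columns, 3 per group in replicate order). These genes were chosen on the control arrays of this plot; blue, below the gene's mean, fills most of the 48 h control columns, and RHOXF2 replicate 3 at 48 h, the last column, is red in most rows.

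RHOXF1 and RHOXF2 were each compared with control at the same time. At 24 h limma called 0 of 77 clusters for RHOXF1, where 0.00471% of all were called, and 0 for RHOXF2, where 0.00943% were. These shares stand for 1 and 2 of the 21214 clusters, all higher, as many as the transfected gene itself has on the array. The largest differences over all clusters were 5.91 and 6.01. With so few calls on the whole array, the 0 is not particular to the members. At an unadjusted p under 0.05 there were 2 clusters for RHOXF1 (1 higher and 1 lower, against 1.62% and 3.14% of all) and 3 for RHOXF2 (all higher, against 1.72% of all). The medians were -0.012 and 0.02, on either side of 0 depending on the array left out (-0.051 to 0.017 and -0.016 to 0.078). MRPS18C read 5.20, 5.34 and 5.68 in control arrays, 5.61, 5.84 and 5.90 with RHOXF1 (0.38 ± 0.13, adjusted p = 0.961) and 5.80, 5.62 and 5.85 with RHOXF2 (0.35 ± 0.13, adjusted p = 0.505). In both comparisons, which share the control arrays, the groups overlapped through control replicate 3. MRPS33, a small subunit protein, read 0.35 ± 0.14 with RHOXF2 (adjusted p = 0.561) and 0.17 ± 0.14 with RHOXF1 (adjusted p = 0.962). MRPL22, which lines the exit tunnel, read 0.21 ± 0.09 with RHOXF2 (adjusted p = 0.581) and 0.19 ± 0.09 with RHOXF1 (adjusted p = 0.961), and MRPS2, a small subunit protein, 0.16 ± 0.11 with RHOXF1 (adjusted p = 0.961). On the lower side were MRPL28 (-0.18 with RHOXF1, adjusted p = 0.961) and MRPL27 (-0.17 with RHOXF1, adjusted p = 0.961, and -0.16 with RHOXF2, adjusted p = 0.759). MRPL24 read -0.14 with RHOXF1 (adjusted p = 0.961) and -0.12 with RHOXF2 (adjusted p = 0.816), and MRPS34 -0.13 with RHOXF2 (adjusted p = 0.833).

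At 48 h limma again called 0 of 77 clusters against control, for RHOXF1 (0.00943% of all called) and for RHOXF2 (0.0943% of all). In both comparisons 58 of 77 clusters read higher than control, where 52.6% of all clusters did for RHOXF1 and 53.9% for RHOXF2, with medians of 0.081 and 0.096 against 0.008 and 0.013 over all. At an unadjusted p under 0.05 there were 11 clusters in each, all higher, where 4.1% of all clusters were higher at that p for RHOXF1 and 6.41% for RHOXF2. In 13 clusters the RHOXF1 arrays lay entirely above control, against 7.17% of all, and in 5 the RHOXF2 arrays did, against 6.59%. Of the 10607 clusters above the median level, 502 (RHOXF1) and 903 (RHOXF2) were higher at that p, with medians of 0.012 and 0.017. The arrays lay entirely above control in 896 and 746 of them. The members' counts include genes with several clusters, some of identical values. By 1 cluster per gene, 54 of 73 read higher in each comparison, with 9 (RHOXF1) and 10 (RHOXF2) at that p. The arrays lay entirely above control in 11 and 5 of the 73. Without replicate 3 of RHOXF2 at 48 h the RHOXF2 median was 0.038. Both comparisons share the control arrays of 48 h with the time comparison in control cells, so the 3 are not independent.

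The members with the smallest p at 48 h did not pass. MRPL22 read 8.18, 7.95 and 8.12 in control arrays and 8.51, 8.23 and 8.39 with RHOXF1 (0.29 ± 0.09, adjusted p = 0.516), without overlap. MRPL41, a large subunit protein, read 10.24, 10.26 and 10.42 in control and 10.53, 10.76 and 10.60 with RHOXF1 (0.32 ± 0.12, adjusted p = 0.594), also without overlap. MRPS11 read 0.30 ± 0.12 with RHOXF1 (adjusted p = 0.631). MRPL18 read 10.36, 10.30 and 10.26 in control and 10.52, 10.51 and 10.72 with RHOXF2 (0.28 ± 0.08, adjusted p = 0.22), again without overlap. MRPL1 read 0.49 ± 0.17 above control with RHOXF2 (adjusted p = 0.27) and 0.36 with RHOXF1, and MRPL35 0.33 ± 0.11 with RHOXF2 (adjusted p = 0.27) and 0.24 with RHOXF1. On the lower side, MRPS35 read -0.14 ± 0.08 with RHOXF1 (adjusted p = 0.751) and -0.09 with RHOXF2 (adjusted p = 0.707), MRPL2 -0.19 ± 0.12 with RHOXF1 (adjusted p = 0.764) and MRPL33 -0.11 ± 0.07 with RHOXF1 (adjusted p = 0.786). MRPS25 read -0.17 ± 0.13 with RHOXF2 (adjusted p = 0.628) and MRPS34 -0.12 ± 0.11 (adjusted p = 0.717).

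**Figure D5:**
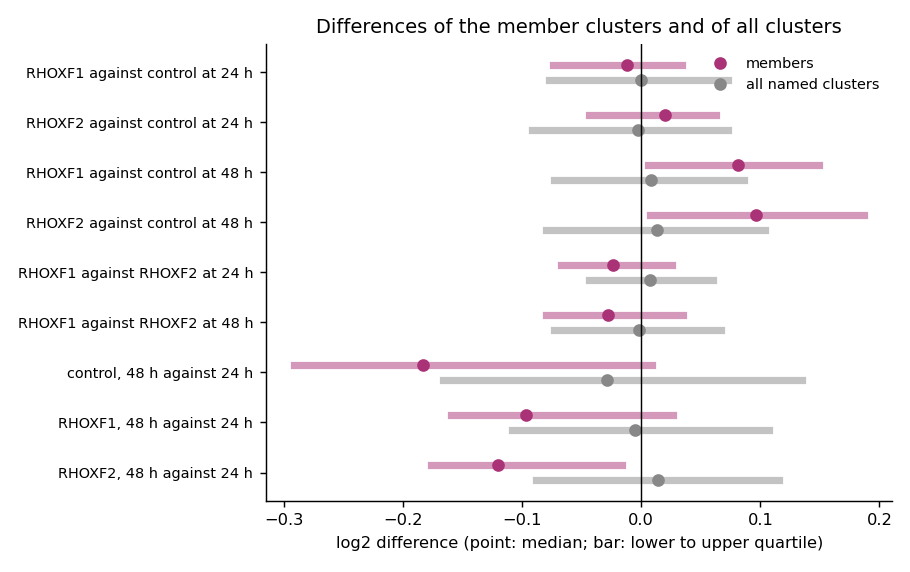
Log2 difference (x axis) in the 9 comparisons of 2 groups (y axis), with the median as a point and the lower to upper quartile as a bar, for the 77 member clusters (purple) and all 21214 named clusters (grey). The member median is lowest for control at 48 h against 24 h (-0.183) and highest for RHOXF2 against control at 48 h (0.096).

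The change with time was then compared between each RHOX plasmid and control by an interaction term. For RHOXF1 limma called 0 members, as it did over all clusters (0%), with 2 at an unadjusted p under 0.05, both in the higher direction, against 3.08% of all. For RHOXF2 it called 0 members (0.0141% of all), with 4 such clusters, against 5.44% of all. The share depends on level, and most members lie above the median level. Of the 10607 clusters above it, 125 for RHOXF1 and 251 for RHOXF2 were higher at that p. Their medians were -0.025 and -0.02, and those of the members 0.103 and 0.069. The difference was not tested. The members of smallest p on the higher side, a smaller fall or larger rise than in control, were MRPL28 (0.29 ± 0.12), MRPL41 (0.36 ± 0.17) and MRPL27 (0.29 ± 0.14) for RHOXF1, each with an adjusted p of 0.95. For RHOXF2 they were MRPL18 (0.29 ± 0.11, adjusted p = 0.557), MRPL35 (0.375 ± 0.16, adjusted p = 0.56) and MRPL20 (0.33 ± 0.16, adjusted p = 0.57). On the lower side were MRPS18C (-0.36 ± 0.18), MRPS35 (-0.16 ± 0.12) and MRPL33 (-0.11 ± 0.10) for RHOXF1, each with an adjusted p of 0.95. For RHOXF2 these were MRPL33 (-0.18 ± 0.10, adjusted p = 0.608), MRPS35 (-0.14 ± 0.12, adjusted p = 0.715) and MRPS33 (-0.22 ± 0.20, adjusted p = 0.747). So a call in control cells and none in RHOXF2 cells was not shown to be a difference between them. Directly compared, RHOXF1 and RHOXF2 differed in 0 of 77 clusters at 24 h (0.0141% of all called) and at 48 h (0.0519% of all), with 0 and 1 at an unadjusted p under 0.05 (1.98% of all were lower at that p at 48 h). That 1 was MRPL57, a large subunit protein, at -0.23 ± 0.11 in RHOXF1 against RHOXF2 at 48 h (adjusted p = 0.998). By p it was followed at 48 h by MRPL18 (-0.14) and MRPS18C (-0.19) on the lower side, with MRPL41 (0.21), MRPS21 (0.15) and MRPL58 (0.155) on the higher side, all with an adjusted p of 0.998. At 24 h the readings of smallest p were MRPL33 (-0.14), MRPL28 (-0.11) and MRPS33 (-0.175) on the lower side and MRPS21 (0.11), MRPS11 (0.07) and MRPL35 (0.065) on the higher, all with an adjusted p of 1. The median at 48 h was -0.028, and 0.029 without replicate 3 of RHOXF2.

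Other genes of mitochondrial translation were read from lists. Of 28 assembly factors of the mitochondrial ribosome, 7 fell and 2 rose in control cells between the times (median -0.139), where 17.8% of all clusters were called in either direction. TRUB2, a pseudouridine synthase, fell by 0.60 (adjusted p = 0.00806), MPV17L2 by 0.76 (adjusted p = 0.0095), FASTKD2, which binds mitochondrial ribosomal RNA, by 0.46 (adjusted p = 0.0164) and C1QBP by 0.30 (adjusted p = 0.0205). The GTPase NOA1 rose by 0.33 (adjusted p = 0.016). In RHOXF1 cells FASTKD2 (-0.49, adjusted p = 0.0321) and MPV17L2 (-0.66, adjusted p = 0.0489) fell as well, where 1.35% of all clusters were called lower. Over the other settings and with single arrays left out, the MPV17L2 call in RHOXF1 cells was lost 9 times and held 5 times. That of FASTKD2 was lost 4 times and held 10 times. In control cells the TRUB2 call held each time, and those of MPV17L2, FASTKD2, C1QBP and NOA1 were lost 1, 3, 4 and 4 times.

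Of 15 mitochondrial translation factors measured, 3 fell in control cells and none rose (median -0.092). In control cells 7.89% of all clusters were called lower, in RHOXF1 cells 1.35% and in RHOXF2 cells 0.259%, and the counts in these lists are to be read against those shares. GFM1, the elongation factor that moves the ribosome along the message, fell by 0.81 (adjusted p = 0.00387), TSFM, which recharges the elongation factor that delivers transfer RNA, by 0.48 (adjusted p = 0.0213) and GUF1 by 0.29 (adjusted p = 0.0309). In RHOXF1 cells GFM1 (-0.69, adjusted p = 0.0292) and GUF1 (-0.37, adjusted p = 0.0254) fell, and in RHOXF2 cells GUF1 did (-0.44, adjusted p = 0.029). Of 20 mitochondrial aminoacyl-tRNA synthetases and related enzymes, 3 fell in control cells: LARS2, for leucine, by 0.36 (adjusted p = 0.0178), CARS2, for cysteine, by 0.31 (adjusted p = 0.0325) and QRSL1, a subunit of the amidotransferase that makes glutamine-charged transfer RNA, by 0.34 (adjusted p = 0.0392). LARS2 also fell in RHOXF1 cells (-0.40, adjusted p = 0.0285). Of the translation factor and synthetase calls, only that of GFM1 in control cells held under every other setting and with each array left out. In RHOXF1 cells the calls of GFM1 and GUF1 were each lost 5 times and that of LARS2 6 times. The GUF1 call in RHOXF2 cells was lost 5 times, and the CARS2 call in control cells 6 times. Of 5 factors of mitochondrial transcription, all read lower at 48 h in control cells and 2 fell, TFAM, which packages mitochondrial DNA, by 0.39 (adjusted p = 0.0151) and TFB2M by 0.49 (adjusted p = 0.031). Of the 9 nuclear regulators NRF1, GABPA, GABPB1, YY1, ESRRA, PPARGC1A, PPARGC1B, PPRC1 and MYC, limma called 0 in control cells, with 3 at an unadjusted p under 0.05. Of all 21214 clusters, 3472 were higher and 3641 lower at that p in the same comparison, so the 3 are not particular to these regulators. PPARGC1B read -0.30 (adjusted p = 0.0881) and YY1 -0.14 (adjusted p = 0.144). The 4 mitochondrial ribosomal proteins measured under other names (DAP3, PTCD3, CHCHD1 and GADD45GIP1) had 0 called and 0 at that p, with GADD45GIP1 at -0.20 (adjusted p = 0.173) and PTCD3 at 0.07 (adjusted p = 0.53). In the 4 comparisons with control at the same time, 0 genes of these 6 lists were called.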

How the data were processed

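The authors deposited log2 expression values, 1 per transcript cluster and array, made by RMA (background correction, quantile normalization and summarisation) in Affymetrix Expression Console 3.1, per the labels. RMA compresses large folds, and it assumes that most transcripts do not change. The array annotation's build is not given in the sources used here. Of 33297 clusters, 21214 carried a symbol in the platform's gene table. The fit used limma 3.58.1 (lmFit and eBayes, under R 4.3.3) with 1 mean for each of 6 groups over all 18 arrays, and the 11 comparisons were tested two-sided with Benjamini-Hochberg adjustment over all named clusters within each. SE is limma's moderated one. Precision is limited by 3 arrays per group. The fit was run on simulated data with independent noise and known changes set in the control arrays of 48 h. For that group's time comparison it called 67% of 100 changes of 0.5 log2 and 97% of 100 changes of 1. It also called 7 unchanged clusters. The changed clusters were a far smaller share of all than the 17.8% called in the measured control comparison. The adjusted p depends on that share, so these rates do not carry over to that comparison. Smaller changes and residuals correlated between arrays were not simulated. Members and lists were chosen with earlier results of these data known. Named were all members called, filled up to 3 in each direction by smallest p, a gene by its brightest cluster; some are also given in a second comparison for reference. Of the other lists, called genes of smallest p were named, up to 5, filled up to 2. Alternatives covered 2 scalings, a level filter, 1 cluster per symbol, the variance prior, the arrays fitted, a replicate block and each array left out.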

Additional observations from a re-analysis of the deposited data

How the results depend on the processing

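For the comparisons of RHOXF1 or RHOXF2 with control, with each other, and of their effects between the times, the count of members called was 0 under every alternative. In control cells, 48 h against 24 h, the count was 8 with only the compared arrays fitted and 7 to 24 with 1 array left out. In RHOXF1 cells it was 2 with repeated quantile normalization or cyclic loess, 6 with only the compared arrays fitted, and 0 to 4 with 1 array left out. In RHOXF2 cells it was 1 with repeated quantile normalization, 1 above the median level, 1 with 1 cluster per symbol, 2 with the replicate block, and 0 to 4 with 1 array left out. The labels do not say that a replicate number marks a shared day or culture, so the numbers were not taken as pairs. Among same-numbered arrays, residuals had r over 0.1 for 8 of 9 pairs at 24 h (up to 0.519) and 2 of 9 at 48 h. Across the times 6 of 27 did (-0.256 to 0.374). Comparisons within a time were blocked by number at that time. For the time comparisons the block matched equal numbers across the times, a match that few of these pairs bear out. It gave 22 members in control cells and 4 in RHOXF1 cells, beside the 2 in RHOXF2 cells. Leaving RHOXF2 replicate 3 at 48 h out of fits on other groups, chosen after seeing the data, gave 24 members in control cells and 4 in RHOXF1 cells. Among the genes named, the brighter MRPL36 cluster in control cells changed sign with 1 array left out (-0.21 to 0.151), as did the MRPS24 cluster (-0.02 to 0.095, with -0.003 without replicate 1 at 24 h). The median over the members crossed 0 for RHOXF1 and RHOXF2 against control at 24 h (-0.051 to 0.017 and -0.016 to 0.078 with 1 array left out, and down to -0.023 for RHOXF2 under the other alternatives), and for RHOXF1 against RHOXF2 (-0.038 to 0.002 at 24 h and -0.063 to 0.029 at 48 h). The number of arrays and the link of time with array series limit all time comparisons.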
